A study of Mus musculus with 14 samples.

Results

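Small nucleolar RNAs and Cajal body RNAs were followed in an overloaded mouse calf muscle through their array rows. A row was taken where the array annotation gave it a single gene symbol that starts with Snord, Snora or Scarna. This rule gave 60 of the 35557 rows of the table. Scarna17, Snora30 and Snord118 each had a pair of rows with identical values on every array, and each such pair was counted once, which left 57 distinct rows for 54 symbols. Of these, 32 rows were Snord (box C/D), 22 were Snora (box H/ACA) and 3 were Scarna. No signal was used to choose them. The muscle was the plantaris of male C57BL/6J mice aged 25 months, overloaded by synergist ablation, the removal of the gastrocnemius and soleus. RNA was taken on days 1, 3, 5, 7, 10 and 14 of overload and on day 0, whose animals are labelled healthy. Each day had 2 arrays, 1 with the pooled left and 1 with the pooled right plantaris muscles of 6 animals. All animals were old, no sham operation is labelled, and young muscle was not analysed here, so the effects of surgery and load cannot be told apart. Animals differ between days, and the left and right pool were taken to share their animals, so p-values here measure the spread between sides and arrays only.

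Both kinds of small nucleolar RNA (snoRNA) work as guides. A box C/D snoRNA, named after its short C (UGAUGA) and D (CUGA) motifs, pairs with a target RNA and directs the methyltransferase fibrillarin to add a 2′-O-methyl group there. An H/ACA snoRNA, which ends in an ACA motif close to its 3′ end, directs the enzyme dyskerin to turn a uridine into pseudouridine. Most targets lie in ribosomal RNA, and a few snoRNAs (U3, U8, U14, U17 and U22) are needed for cutting the ribosomal RNA precursor. The small Cajal body RNAs (scaRNAs) carry the same boxes and guide the modification of spliceosomal RNAs. In vertebrates most of these RNAs are cut out of the introns of host genes, many of which encode ribosomal proteins, and a growing muscle fibre raises its production of ribosomes.

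The sequences of these genes are not in the RefSeq tables used, but 3 microRNA hairpins of the mouse build GRCm38.p6 lie on snoRNA or scaRNA genes and show the class boxes, written in capitals. The hairpin of Mir5121 covers the first 28 of the 82 bases of Snord33 (chr7:45126918-45126945, minus strand), and box C stands at positions 7 to 12 of that gene. The hairpin of Mir3069 covers positions 209 to 273 of the 275 bases of Scarna13 (chr12:105031077-105031141, minus strand), with the ACA box 3 bases before the gene's end. The hairpin of Mir664 covers positions 50 to 113 of the 113 bases of Snora36b (chr1:185242975-185243038, plus strand), again with ACA 3 bases before the end. Snora36b shares its array row with Mir664 and is therefore not among the 60 rows.
Snord33, positions 1 to 28: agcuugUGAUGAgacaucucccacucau
Scarna13, positions 209 to 273: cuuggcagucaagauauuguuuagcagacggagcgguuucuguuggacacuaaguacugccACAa
Snora36b, positions 50 to 113: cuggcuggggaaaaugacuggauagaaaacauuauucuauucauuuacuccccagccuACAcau

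The values are log2 signals between 2.35 and 14.8. Array medians lay between 7.91 and 7.97 over all rows, and within each day the 2 sides had an r of 0.995 to 0.997 over the 21789 rows with 1 symbol (rows are not independent replicates). Mean signals of the snoRNA and scaRNA rows ran from 4.86 for Snord58b to 12.91 for Snora52, with a median of 8.90 against 8.42 over all rows tested. The median gap between the left and right array of a day was 0.181 for these rows and 0.115 over all rows tested, so a change of a given size was harder to call for a snoRNA row. Differences below are the mean of a day minus the mean of day 0 on the log2 scale, with the standard error (SE) of the limma fit to all 14 arrays. A row was called where its p-value, adjusted by Benjamini and Hochberg over all 21789 rows, was under 0.05. Where host genes are named below, a row named for an intronic snoRNA can also take signal from the unspliced host transcript, and the values do not separate them.

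Of the box C/D rows called on a day of overload, most were higher, while the H/ACA rows called were split between higher and lower on days 3 to 14. Rows called in either direction made up 45%, 51.2%, 60.4%, 63.3%, 60.5% and 53.4% of all rows tested on days 1, 3, 5, 7, 10 and 14. Of the 32 box C/D rows, 16, 17, 14, 18, 19 and 17 were called higher on days 1, 3, 5, 7, 10 and 14, and 0, 0, 2, 1, 1 and 1 were called lower. Of the 22 H/ACA rows, 7, 8, 6, 6, 6 and 5 were called higher and 1, 5, 8, 5, 4 and 5 lower on the same days. Over all rows tested the share called higher was 22.2%, 24.4%, 26.8%, 27.2%, 26.4% and 23.2%, and the share called lower was 22.9%, 26.8%, 33.6%, 36.1%, 34.1% and 30.2%. The box C/D rows called higher came to between 43.8% and 59.4% of that class, above the share of all rows on each day, and the H/ACA rows called higher came to between 22.7% and 36.4%, above the share of all rows on days 1 and 3 and near it from day 5 on. The H/ACA rows called lower, 4.55% to 36.4%, were above the share of all rows on day 5 and below it on the other days. Most of the array changed during overload, so that a moderated F test over all days called 79.6% of all rows, 26 of the 32 box C/D rows, 17 of the 22 H/ACA rows and 2 of the 3 scaRNA rows.

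**Figure D1:**
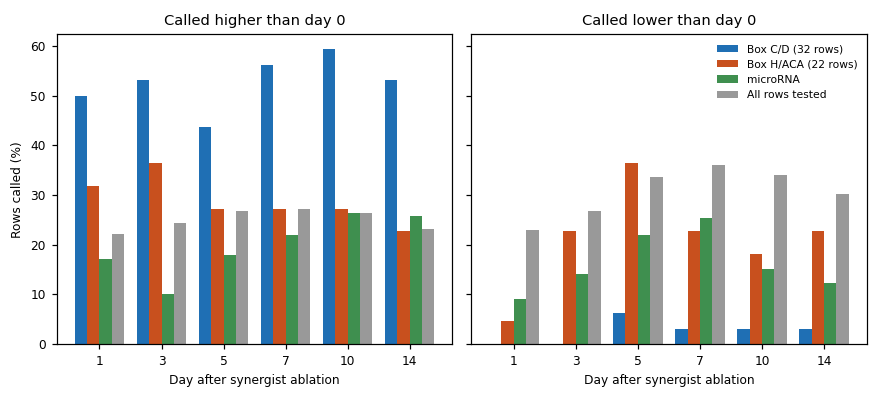
Percentage of rows called higher (left panel) and lower (right panel) than day 0 on each day, for box C/D, H/ACA and microRNA rows and for all rows tested. Box C/D bars in the left panel stand between 43.8% and 59.4%, against 22.2% to 27.2% for all rows.

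The median difference from day 0 over the box C/D rows was 0.42, 0.46, 0.30, 0.53, 0.49 and 0.40 on days 1, 3, 5, 7, 10 and 14. Over the H/ACA rows it was 0.09, 0.19, -0.18, 0.00, 0.16 and -0.19. The median over all rows tested was 0.04, -0.07, -0.12, -0.14, -0.12 and -0.11, and that over the microRNA rows, another class of short RNAs, lay between -0.09 and 0.09. The microRNA rows were dimmer, with a median of mean signals of 6.71 against 8.90 for the snoRNA and scaRNA rows, which limits the comparison. The box C/D median was above the H/ACA median by 0.27 on day 3 to 0.59 on day 14. On each of the 12 arrays of overloaded muscle the box C/D median stood above the H/ACA median, by 0.185 to 0.668, all measured from the same 2 arrays of day 0. The H/ACA median moved with the array as well as the day, at 0.348 for the left and -0.178 for the right pool of day 10. Without the right array of day 0 the gap was 0.16, 0.22 and 0.30 on days 3, 5 and 7, and without the left array of day 10 it was 0.60 on that day. These medians describe the rows and carry no test.

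**Figure D2:**
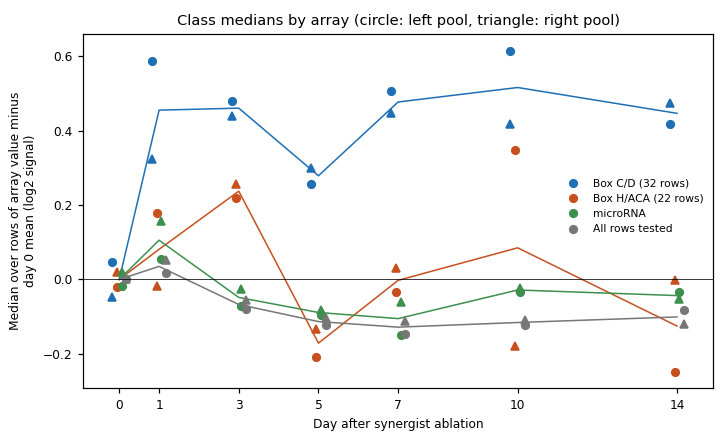
Median over the rows of a class of each array's value minus the day 0 mean (log2 signal) by day, with circles for left and triangles for right pools and lines through the day means. The box C/D points of days 1 to 14 lie between 0.258 and 0.616, above both H/ACA points of the same day, which are between -0.249 and 0.348.

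The shift of the whole array changes how many rows fall on either side. Of the called snoRNA and scaRNA rows, 92.0%, 83.3%, 65.6%, 78.1%, 83.9% and 75.9% were higher on days 1, 3, 5, 7, 10 and 14, against 49.2%, 47.6%, 44.3%, 43.0%, 43.6% and 43.4% of all called rows. With all arrays set to equal medians over the rows tested, these shares were 88.5%, 82.1%, 48.5%, 64.7%, 65.5% and 54.5% for the snoRNA and scaRNA rows and 45.2%, 36.1%, 30.7%, 29.0%, 29.0% and 28.0% for all rows. That setting moved the median of all rows to -0.29 on day 7, while shifting each day to a median difference of 0 gave 100% higher for the called snoRNA and scaRNA rows on day 3. Quantile normalization gave 63.6% on day 14. The box C/D median was positive on each day under all 4 scalings (0.16 to 0.67), and the H/ACA median was negative on days 5 and 14 and positive on days 1, 3 and 10 under all 4. On day 7 the H/ACA median was -0.16 with equal medians and 0.13 with the median difference set to 0.

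**Figure D3:**
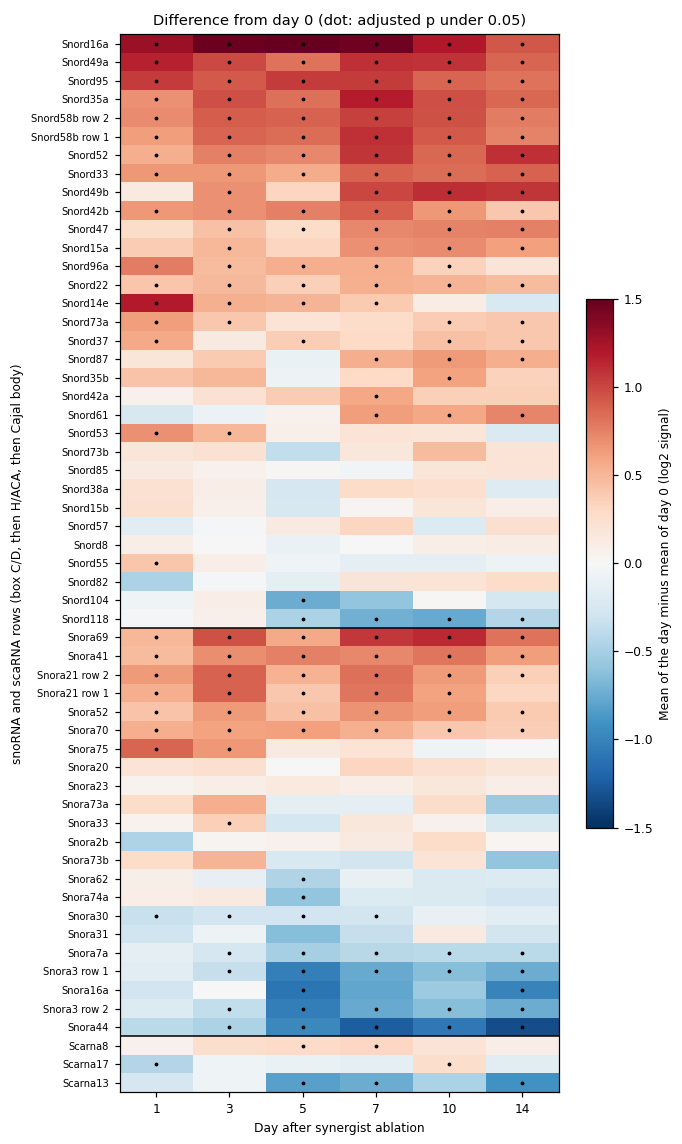
Difference from day 0 (log2 signal, colour) of the 57 distinct rows on days 1 to 14, with box C/D rows at the top, H/ACA rows below them and scaRNA rows at the bottom, each ordered by mean difference. Dots mark adjusted p under 0.05, and 10 box C/D and 5 H/ACA rows have a dot for a rise on all 6 days. The share of all rows with such rises was not counted.

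The rows called higher on all 6 days were 10 box C/D rows (Snord16a, Snord22, Snord33, Snord35a, Snord42b, Snord49a, Snord52, Snord95 and both rows of Snord58b) and 5 H/ACA rows (Snora41, Snora52, Snora69, Snora70 and 1 of the 2 rows of Snora21). The share of all rows called higher on all 6 days was not counted, so these counts have no background beside them. The 6 calls of a row also share the same day 0 arrays. Snord16a, which lies in the ribosomal protein gene Rpl4, had the largest rise on days 1, 3, 5, 7 and 10. Its log2 signal on the left and right arrays was 8.87 and 8.81 on day 0, 10.13 and 10.15 on day 1, 10.19 and 10.43 on day 3, 10.17 and 10.5 on day 5, 10.14 and 10.46 on day 7, 10.12 and 9.96 on day 10 and 9.85 and 9.68 on day 14. Every array of overloaded muscle was above both arrays of day 0. The differences were 1.30, 1.47, 1.5, 1.46, 1.20 and 0.93 ± 0.13 (SE), which is 2.46-fold on day 1 and 2.82-fold on day 5, with adjusted p of 5.5e-06 on day 1 and 9.1e-07 on day 5.

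Snord35a and Snord33 come from introns of Rpl13a, whose box C/D snoRNAs are known from cultured cells for a role in the response to an excess of fatty acids. Snord35a gave 9.37 and 9.21 on day 0, 9.96 and 9.98 on day 1, 10.36 and 10.17 on day 3, 10.14 and 10.10 on day 5, 10.39 and 10.55 on day 7, 10.30 and 10.22 on day 10 and 10.10 and 10.19 on day 14. It was highest on day 7, at 1.18 ± 0.09 above day 0 (2.26-fold, adjusted p = 3e-07). Snord33, the gene whose box C is printed above, was higher by 0.65 ± 0.13 on days 1 and 3, by 0.56 on day 5 and by 0.88 on days 7 and 14. Its 12 arrays of overloaded muscle lay between 8.72 and 9.18, all above the 8.47 and 8.09 of day 0.

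Snord95 lies in Rack1, which encodes a scaffold protein of the small ribosomal subunit. It gave 8.15 and 7.85 on day 0, 9.11 and 8.99 on day 1, 8.98 and 8.86 on day 3, 8.97 and 9.14 on day 5, 8.97 and 9.13 on day 7, 8.96 and 8.78 on day 10 and 8.76 and 8.85 on day 14. The rise was already 1.05 ± 0.11 on day 1 (adjusted p = 8.4e-06) and was still 0.81 on day 14. Snord49a, which lies in a noncoding host (2410006H16Rik), rose by 1.16 ± 0.17 on day 1 and by 0.82 to 1.09 later. Snord58b, the dimmest of the box C/D rows, had 2 rows that differed by at most 0.203 on any array, and their rises lay between 0.63 and 1.1. Snord52 in 1110038B12Rik gave 6.02 and 5.90 on day 0, 6.62 and 6.38 on day 1, 6.75 and 6.67 on day 3, 6.64 and 6.71 on day 5, 7.00 and 7.07 on day 7, 6.98 and 6.66 on day 10 and 7.09 and 7.00 on day 14. It was the box C/D row with the largest rise on day 14, at 1.09 ± 0.11 (adjusted p = 6e-06).

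A few box C/D rows were highest on day 1 and came back. Snord14e, a copy of U14 in the heat shock protein gene Hspa8, gave 9.54 and 9.31 on day 0, 10.71 and 10.52 on day 1, 9.93 and 9.98 on day 3, 9.90 and 9.96 on day 5, 9.85 and 9.77 on day 7, 9.70 and 9.37 on day 10 and 9.26 and 9.14 on day 14. The rise was 1.19 ± 0.11 on day 1 (2.29-fold, adjusted p = 3.3e-06), and the drop from day 1 was itself called, with day 3 minus day 1 at -0.66 ± 0.11 (adjusted p = 0.00069). On day 10 the difference from day 0 was 0.11 and on day 14 it was -0.23, and neither was called. The call on day 7 (0.39) was lost without the right array of day 0 (adjusted p = 0.10) and without the left array of day 7 (adjusted p = 0.067), and also with quantile normalization (0.24, adjusted p = 0.081) and equal array medians (0.23, adjusted p = 0.072). Those scalings called the day 14 value lower (-0.35 in each). Snord53 in Wdr43 was higher on day 1 (0.68 ± 0.12) and day 3 (0.50), with differences from -0.22 to 0.21 and no call on later days. Snord37, in the elongation factor gene Eef2, was also highest on day 1 but was called again later, on days 1, 5, 10 and 14 in all (0.57, 0.37, 0.44 and 0.40 ± 0.14). Each of these calls was lost with 1 array left out (adjusted p from 0.056 to 0.23), and those of days 5, 10 and 14 also with equal array medians (adjusted p = 0.17, 0.085 and 0.12).

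Other box C/D rows had their largest rises later. Snord49b had 10.86 and 10.53 on day 0, 11.17 and 10.52 on day 1, 11.55 and 11.21 on day 3, 11.08 and 10.95 on day 5, 11.69 and 11.71 on day 7, 11.91 and 11.70 on day 10 and 11.80 and 11.72 on day 14. Its arrays of days 0 and 1 overlapped, and it was higher by 1.00, 1.11 and 1.07 ± 0.18 on days 7, 10 and 14. The call on day 3 (0.69) was lost without the right array of day 0 (adjusted p = 0.071) or the left array of day 3 (adjusted p = 0.077). Snord61 in Rbmx was called on days 7, 10 and 14 (0.63, 0.58 and 0.73 ± 0.19) and not on days 1, 3 and 5 (-0.24, -0.09 and 0.07). Snord87 in the noncoding host Snhg6 was called on the same 3 late days, at 0.54 to 0.64.

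Among the Snord rows, 3 were for RNAs that act in cutting the ribosomal RNA precursor. Snord14e (U14) is described above. Snord22 (U22), needed in Xenopus for making small-subunit ribosomal RNA, was higher by 0.36 to 0.53 ± 0.10 on all 6 days, with 12 arrays between 7.35 and 7.67 against 7.00 and 7.13 on day 0. Its call on day 5 was lost without the left array of day 0 (adjusted p = 0.057) and with equal array medians (0.22, adjusted p = 0.067). Snord118 (U8), needed in vertebrates for the large-subunit ribosomal RNA and mutated in a human brain disorder with cysts and calcification, went the other way. It gave 10.13 and 9.96 on day 0, 10.17 and 9.88 on day 1, 10.27 and 9.99 on day 3, 9.47 and 9.67 on day 5, 9.26 and 9.39 on day 7, 9.39 and 9.18 on day 10 and 9.67 and 9.55 on day 14. All arrays from day 5 on were below those of day 0, and the differences were -0.48, -0.72, -0.76 and -0.44 ± 0.13 on days 5, 7, 10 and 14 (adjusted p = 0.00028 on day 10). The calls of days 5 and 14 were lost without the left array of day 0 (adjusted p = 0.053 and 0.086), and each also without 1 array of its own day (adjusted p = 0.066 and 0.086), and that of day 14 with the median difference from day 0 set to 0 (adjusted p = 0.055). Snord118 is the 1 member with no containing gene in RefSeq and is known to be transcribed from a promoter of its own. The remaining box C/D row called lower was Snord104, at -0.75 ± 0.29 on day 5 (adjusted p = 0.04). It read 11.18 and 11.48 on day 5 against 11.73 and 12.43 on day 0, and without the higher of the day 0 arrays the difference was -0.40 (adjusted p = 0.32). That call was also lost without any 1 array of days 1 and 5 (adjusted p from 0.05 to 0.19) and with the median difference from day 0 set to 0 (adjusted p = 0.085).

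Of the 32 box C/D rows, 7 were not called on any day (Snord8, Snord15b, Snord38a, Snord57, Snord73b, Snord82 and Snord85). Snord57, with a mean of 11.86 among the brightest box C/D rows, had differences from -0.21 to 0.32 ± 0.27.

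**Figure D4:**
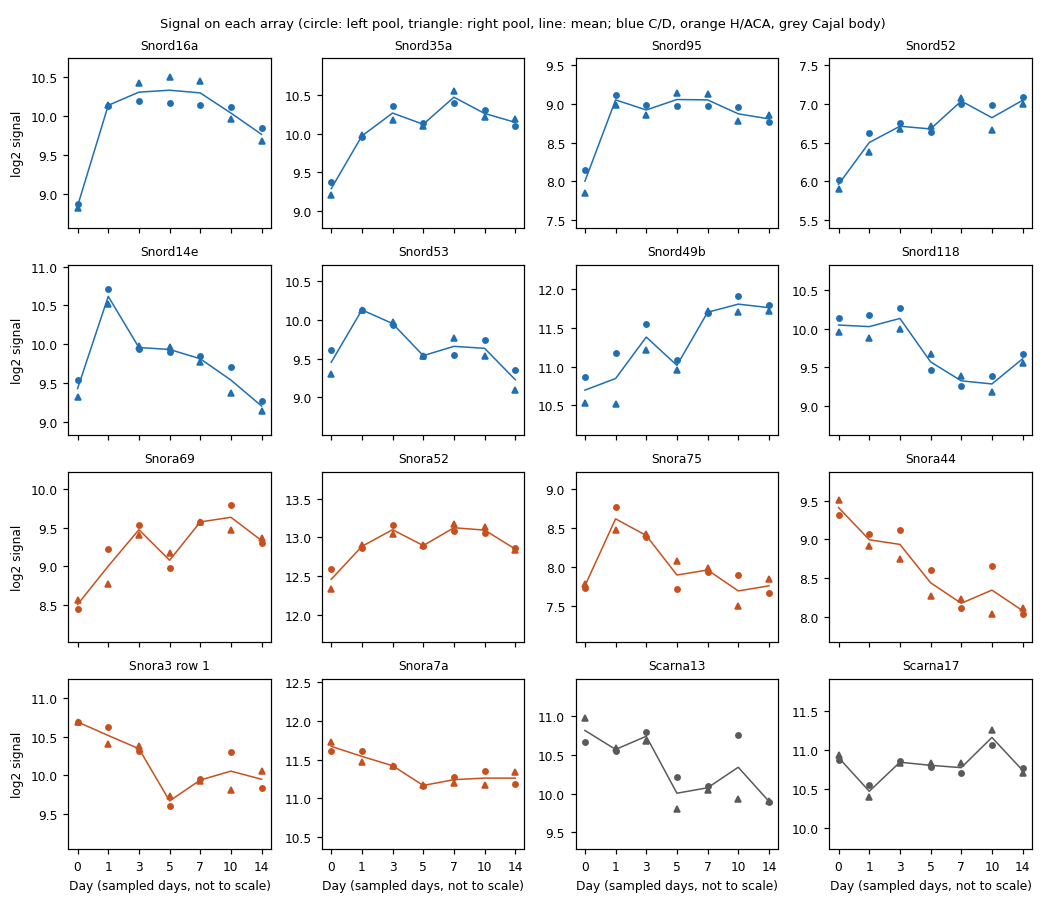
Log2 signal of 16 rows on every array by sampled day (circles left, triangles right, line through the means), with each panel spanning 2.2 log2 units so that slopes can be compared. Snord16a lies between 9.68 and 10.5 on all arrays after day 0, Snord14e is at 10.71 and 10.52 on day 1 alone, and Snora44 is at 8.04 and 8.12 on day 14.

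Among H/ACA rows, those that rose included the brightest of the class. Snora52, in the ribosomal stalk gene Rplp2, gave 12.59 and 12.33 on day 0, 12.87 and 12.90 on day 1, 13.16 and 13.04 on day 3, 12.89 and 12.90 on day 5, 13.08 and 13.17 on day 7, 13.06 and 13.13 on day 10 and 12.86 and 12.84 on day 14. All 12 arrays of overloaded muscle were above day 0, and the differences lay between 0.39 and 0.67 ± 0.09 (adjusted p = 3.5e-05 on day 7). Snora69, in the ribosomal protein gene Rpl39, gave 8.45 and 8.57 on day 0, 9.23 and 8.78 on day 1, 9.54 and 9.41 on day 3, 8.98 and 9.18 on day 5, 9.58 and 9.57 on day 7, 9.80 and 9.47 on day 10 and 9.30 and 9.37 on day 14. Its rise was 0.96 ± 0.14 on day 3 and 1.12 on day 10 (2.18-fold, adjusted p = 2.5e-05), the largest among H/ACA rows. The call on day 1 (0.50) was lost without the left array of day 0 (adjusted p = 0.075) or of day 1 (adjusted p = 0.14). Snora41, in the elongation factor gene Eef1b2, was higher by 0.47 to 0.80 ± 0.14, and its call on day 1 was lost without the right array of day 0 (adjusted p = 0.072) or the left array of day 1 (adjusted p = 0.12). Snora75, in the nucleolin gene Ncl, rose early, at 8.77 and 8.47 on day 1 and 8.38 and 8.43 on day 3, against 7.73 and 7.78 on day 0. Its differences were 0.87 and 0.65 ± 0.15 on those days, and between -0.06 and 0.21 afterwards, with no call.

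The H/ACA rows that fell did so mainly from day 5. Snora44, in the noncoding host Snhg12, gave 9.31 and 9.51 on day 0, 9.07 and 8.92 on day 1, 9.12 and 8.75 on day 3, 8.61 and 8.27 on day 5, 8.12 and 8.23 on day 7, 8.65 and 8.04 on day 10 and 8.04 and 8.12 on day 14. All arrays after day 0 were below both of day 0, and on day 14 it was lower by 2.51-fold (-1.33 ± 0.18, adjusted p = 7.2e-05). Snora16a, in the same host, was lower by -1.09 ± 0.33 on day 5 and -1.0 on day 14, but its day 0 arrays were 10.29 and 10.94. Without the right array of day 0 those values were -0.76 (adjusted p = 0.12) and -0.67 (adjusted p = 0.19), and both calls were also lost without the right array of their own day (adjusted p = 0.067 and 0.12).

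Snora3, in the ribosomal protein gene Rpl27a, had 2 rows that differed by at most 0.041 on any array. Its first row gave 10.69 and 10.69 on day 0, 10.62 and 10.41 on day 1, 10.31 and 10.38 on day 3, 9.61 and 9.73 on day 5, 9.95 and 9.93 on day 7, 10.30 and 9.81 on day 10 and 9.84 and 10.06 on day 14. The difference was -1.03 ± 0.14 on day 5 (2.04-fold lower, adjusted p = 3.2e-05) and -0.64 to -0.76 on days 7, 10 and 14. Snora7a, in Rpl32, was lower by -0.41 to -0.50 ± 0.09 on days 5, 7, 10 and 14, with 8 arrays between 11.16 and 11.35 against 11.61 and 11.73 on day 0. Snora30, in the chromatin remodeller gene Srcap, was lower by -0.27 to -0.33 ± 0.09 on days 1, 3, 5 and 7. Its calls on days 3, 5 and 7 were lost with 1 array left out, with adjusted p between 0.05 and 0.10. They were also lost with the median difference from day 0 set to 0 (-0.22, -0.17 and -0.14), while equal array medians added calls on days 10 and 14 (-0.26 and -0.30). Snora74a, in Snhg4, stood at 9.51 and 9.64 on day 3 and at 8.73 and 8.98 on day 5, and day 5 minus day 3 was -0.72 ± 0.14 (adjusted p = 0.0088).

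The 5 H/ACA falls called on day 3 depended on single arrays and on the scaling. Both rows of Snora3 (adjusted p = 0.047 and 0.043), Snora44 (0.045), Snora7a (0.037) and Snora30 (0.014) made up that count. The count of lower rows on day 3 was 0 without the right array of day 0 or of day 3, 1 without the left array of day 3, 2 without the left array of day 0 or either array of day 7, and 3 without either array of day 5. It was also 0 with the median difference from day 0 set to 0. The differences of Snora44, Snora3 and Snora7a from day 5 on were larger than on day 3 and kept their calls without any 1 array, while Snora30 was at -0.29, -0.27, -0.11 and -0.17 on days 5, 7, 10 and 14.

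Snora73a and Snora73b are copies of U17, which is needed in yeast and vertebrates for small-subunit ribosomal RNA, and both lie in Snhg3. They were bright (means of 10.42 and 10.5), differed from each other by at most 0.305 on any array and can share probes or transcript. Neither was called on any day, and their arrays within a day were far apart, at 11.18 and 10.12 for Snora73a on day 10 and 10.04 and 10.97 for Snora73b on day 0. On day 10 the left array was at least 0.5 above the right for 10 rows, 6 of them H/ACA (Snora16a, Snora31, Snora44, Snora73a, Snora73b and 1 row of Snora3), and the right array was that far above the left for 1 row. With the left array of day 10 left out, 8 rows in place of 5 were called lower on that day, and with the right one left out Snora73a was called higher (0.81, adjusted p = 0.014). What sets these arrays apart was not tested.

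The 3 scaRNAs did not move together. Scarna13, an H/ACA-type scaRNA in Snhg10 whose 3′ end is printed above, gave 10.66 and 10.97 on day 0, 10.55 and 10.59 on day 1, 10.80 and 10.68 on day 3, 10.21 and 9.80 on day 5, 10.10 and 10.05 on day 7, 10.75 and 9.93 on day 10 and 9.89 and 9.91 on day 14. It was lower by -0.81, -0.74 and -0.91 ± 0.21 on days 5, 7 and 14, and on day 10 its arrays fell on either side of the lower day 0 array. The day 5 and day 7 calls were lost without the right array of day 0 (adjusted p = 0.053 and 0.076), and the day 5 call without the right array of day 5 (adjusted p = 0.061). Scarna17 was lower on day 1, at 10.55 and 10.39 against 10.87 and 10.94 on day 0 (-0.44 ± 0.09, adjusted p = 0.0013), and higher on day 10, at 11.07 and 11.26 (0.26, adjusted p = 0.022). The day 10 call was lost without the left array of day 0 (adjusted p = 0.10) or the right array of day 10 (adjusted p = 0.19), and with equal array medians (0.11, adjusted p = 0.29). Scarna8 in Haus6 was called higher on days 5 and 7 (0.29 and 0.31 ± 0.12, adjusted p = 0.049 and 0.035). Its day 5 call was lost with any of 11 arrays left out and its day 7 call without the right array of day 0 or either array of day 7, with adjusted p up to 0.40 and 0.32, and both were lost with equal array medians (0.16 each).

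Between successive days, 15 changes of snoRNA and scaRNA rows were called. From day 1 to day 3, 5 rows rose (Scarna17, Snora2b, Snora69, Snord35a and Snord49b) and 3 fell (Snord14e and Snord37 among them), beside 20% of all rows higher, 24.3% lower and 44.3% in either direction. From day 3 to day 5 none rose and 5 fell (both rows of Snora3, Snora33, Snora74a and Snord118), beside 4.83% higher, 2% lower and 6.83% either way. These falls lay between -0.56 and -0.72 ± 0.14. From day 5 to day 7 none was called, beside 0.376% higher, 0.555% lower and 0.932% either way. Scarna17 was called higher from day 7 to day 10 (0.39 ± 0.09, adjusted p = 0.048), beside 0.872% of all rows higher, 0.872% lower and 1.74% either way. It was called lower from day 10 to day 14 (-0.42, adjusted p = 0.014), beside 3.82% higher, 5.17% lower and 8.99% either way. The count of 15 was 5 without the left array of day 3, 8 without its right array, 9 without the left array of day 5 and 24 without the right array of day 10.

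Host genes were found as RefSeq genes that contain the snoRNA gene, which gave a host for 53 of the 54 symbols and 43 hosts in all. Of the symbols, 21 lay in ribosomal protein genes, 18 in other protein-coding genes and 14 in noncoding genes. Ribosomal protein genes were taken by symbols that start with Rpl or Rps. Rack1, with Snord95 and Snord96a, therefore stands among the other protein-coding genes. Box C/D rows in ribosomal protein hosts were called higher for 8, 8, 6, 8, 9 and 8 of 14 rows on days 1, 3, 5, 7, 10 and 14, with none called lower, and box C/D rows in other hosts or none for 8, 9, 8, 10, 10 and 9 of 18, with up to 2 lower. H/ACA rows in ribosomal protein hosts were called higher for 4 to 6 of 10 and lower for 0 to 4 of 10, and those in other hosts higher for 2, 2, 1, 1, 1 and 1 and lower for 1, 2, 4, 2, 1 and 2 of 12. So rises of box C/D rows were present in both kinds of host, at 42.9% to 64.3% and 44.4% to 55.6%. Over all rows 22.2% to 27.2% were called higher and 22.9% to 36.1% lower. Rises of H/ACA rows came to 40% to 60% in ribosomal protein hosts and to 8.33% to 16.7% in other hosts. The contrast between the classes in rises thus differed with the kind of host, in small groups and without a test.

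A row of the host itself was present for 29 members in 25 hosts. Of the 10 ribosomal protein hosts with a row, 3, 9, 8, 8, 8 and 5 were called higher on days 1, 3, 5, 7, 10 and 14 and none lower, beside 22.2% to 27.2% of all rows higher. Of the 14 other protein-coding hosts, 5, 5, 5, 5, 2 and 1 were called higher and 2, 1, 2, 2, 3 and 4 lower. Member and host were compared directly by fitting the difference of the 2 rows, added to the same table. Of 174 such differences, 74 were called, 39 with the snoRNA's change above the host's and 35 with it below. Beside this, 45% to 63.3% of all single rows were called against day 0. Differences between unrelated rows were not fitted, so the count does not show whether a snoRNA and its host differ more than other rows.

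Snord16a and Rpl4, a protein of the large ribosomal subunit, stood furthest apart on the upper side. Rpl4 changed by 0.11, 0.16, 0.08, 0.15, 0.06 and -0.09 on days 1 to 14, with no call, and Snord16a was above it by 1.02 to 1.42 ± 0.11 (adjusted p = 2.8e-07 on day 5). Snord14e was above Hspa8 by 0.94 ± 0.13 on day 1, where Hspa8 itself rose by 0.26. On the lower side, Snora3 was below Rpl27a by -0.98, -1.71, -1.56, -1.31 and -1.17 ± 0.16 on days 3, 5, 7, 10 and 14. Rpl27a rose by 0.42 to 0.80 on those days, and all 9 of its rows were called higher on each of them. Snora33 was below its host Rps12 by -0.74 to -1.28 ± 0.12 on the same days, all 14 rows of Rps12 being called higher. The rows of a host name the same gene and can share transcript, so they are not independent of each other. Snora41 and Eef1b2, an elongation factor subunit, were close together on some days, with differences of 0.70 and 0.55 from day 0 on day 3 and 0.80 and 0.69 on day 10. They were at 0.47 and 0.07 on day 1 and at 0.63 and 0.24 on day 14. Snora41 minus Eef1b2 was 0.41 and 0.39 ± 0.19 on days 1 and 14 and was not called on any day.

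Snord47 and its host Gas5, a noncoding gene named for its high level in growth-arrested cells, differed in time. The brightest Gas5 row rose by 1.5 ± 0.13 on day 1 and by 0.25 on day 14, and Snord47 by 0.28 on day 1 and 0.75 ± 0.11 on day 14. Snord47 minus Gas5 was -1.22 ± 0.17 on day 1 (adjusted p = 9e-05) and 0.51 on day 14 (adjusted p = 0.028). The 4 Gas5 rows did not rise alike, at 0.71 to 1.75 on day 1 and 0.16 to 1.41 on day 14.

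**Figure D5:**
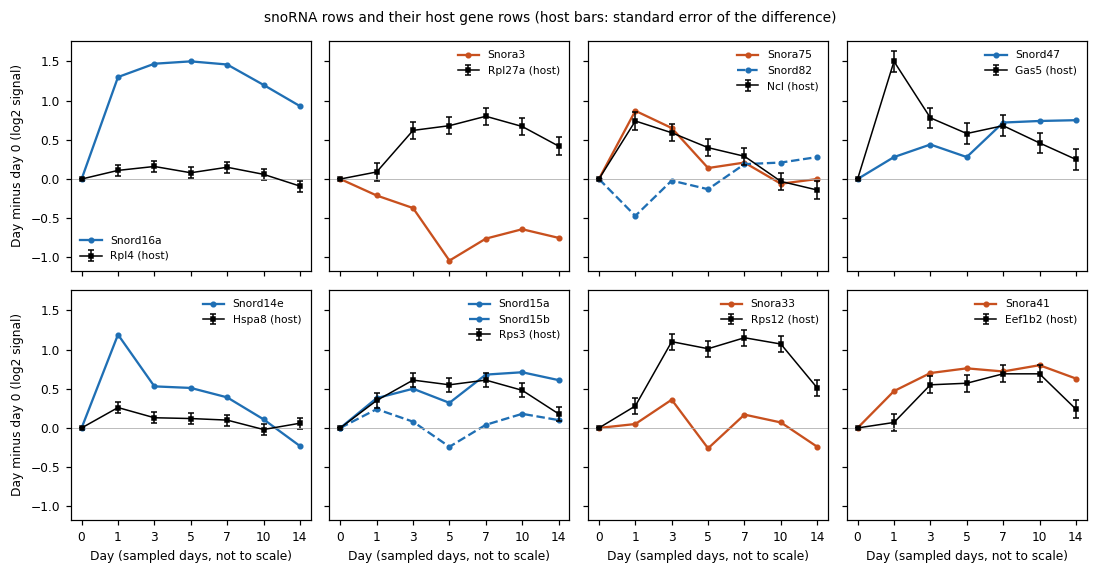
Difference from day 0 (log2 signal) by sampled day for 8 host gene rows (black squares, bars show the SE) and the snoRNA rows inside them (blue box C/D, orange H/ACA, dashed for a host's next snoRNA). Snord16a reaches 1.5 with Rpl4 at 0.16 or less, and Snora3 falls to -1.04 on day 5 while Rpl27a is at 0.68.

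The snoRNAs of 1 host could also move differently. The 10 pairs of members that share a host gave 60 differences between their changes, and 19 were called, in 7 of the pairs. Single rows were called against day 0 for 45% to 63.3% of all rows. Pairs from different hosts were not fitted, so whether snoRNAs of 1 host differ less or more than others was not tested. The pair furthest apart was in Ncl, where Snora75 was at 0.87 and Snord82 at -0.47 on day 1, a difference of 1.34 ± 0.24 (adjusted p = 0.00054). Snord82 read 10.72 and 10.85 on day 1 against 11.01 and 11.50 on day 0, and its own change was not called (adjusted p = 0.058). Snord49a and Snord49b, in 2410006H16Rik, differed by 1.01 ± 0.13 on day 1 (adjusted p = 5.2e-05) and by -0.03 on day 10 (adjusted p = 0.85). Snord95 was above Snord96a, its neighbour in Rack1, by 0.45 to 0.62 ± 0.12 on days 3 to 14, and Snord15a above Snord15b, in Rps3, by 0.43 to 0.64 ± 0.14 on the same days. Snora73a and Snora73b in Snhg3 differed by 0.00 to 0.14 ± 0.12, and Snora16a and Snora44 in Snhg12 by -0.11 to 0.53 ± 0.26, with no call on any day.

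Ribosomal protein messages and some snoRNA hosts begin with a C followed by pyrimidines, a start known to put a message under growth-dependent control of translation. The run searched was a C at the annotated start followed by at least 4 bases that are each C or T, on the gene's own strand. It was present at a start of 6 of 33 host genes with a RefSeq window (18.2%) and of 3.01% of 27025 genes. Rplp2 was the only ribosomal protein gene among the 6, so a search at annotated starts can miss starts of this kind. The windows below, from GRCm38.p6, give 10 bases before and 20 bases from the start of those 6 hosts, with the run in capitals. They hold the snoRNAs Snord52, Snord47, Snord104, Snora23, Snord95 with Snord96a, and Snora52, of which Snord52, Snord95 and Snora52 were called higher on all 6 days, Snord47 and Snord96a on 5 each, and Snord104 and Snora23 on none. Of all 57 distinct rows, 15 were called higher on all 6 days. A link between the run and the calls was not tested.
1110038B12Rik (chr17:34952449-34952478, minus strand): gcacacgggtCTCTTTgtgcacccgcccac
Gas5 (chr1:161035156-161035185, plus strand): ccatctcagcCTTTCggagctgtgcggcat
Gm36220 (chr11:106500905-106500934, plus strand): ccattccggcCTCTTatcgacggggactgc
Ipo7 (chr7:110018305-110018334, plus strand): gcttctctttCCTTTCgcgccggttgccgc
Rack1 (chr11:48800350-48800379, plus strand): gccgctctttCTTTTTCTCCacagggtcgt
Rplp2 (chr7:141447641-141447670, plus strand): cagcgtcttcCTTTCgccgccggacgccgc

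Of the 8 core proteins of the 2 classes, 7 were higher on day 1 and 1 on day 14. All 4 box C/D core proteins were higher on days 1 and 3, 3 of 4 on days 5 and 7 and 1 of 4 on days 10 and 14. Nop58, a scaffold of the box C/D particle, rose by 1.68 ± 0.12 on day 1 (adjusted p = 2.8e-07) and was still 0.48 above day 0 on day 14. Its partner Nop56 rose by 0.86 and the methyltransferase fibrillarin (Fbl) by 0.68 on day 1, and both were within 0.06 of day 0 on day 14. Snu13 (also named Nhp2l1), which binds the box C/D fold itself, rose by 0.34 ± 0.07 on day 1 and was lower by -0.22 on day 14. Of the 4 H/ACA core proteins, 3 were higher on day 1 and 3 were lower on day 14. Gar1 rose by 1.16 ± 0.11, Nhp2 by 0.91 and the pseudouridine synthase dyskerin (Dkc1) by 0.60 on day 1, while Nop10 was at -0.11 with no call. On day 14 Dkc1 was lower by -0.50 ± 0.13, Gar1 by -0.32 and Nop10 by -0.25, and Nhp2 was at 0.03.

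Of 9 assembly factors, 2 were higher and 1 lower on day 1, and 0 higher and 6 lower on day 14. Nufip1, an adaptor in box C/D assembly, rose by 0.76 ± 0.09 on day 1, and Ruvbl2, a helicase of the assembly complex, was lower by -0.40 ± 0.09 on day 14. Of 10 Cajal body and scaRNA factors, 5 were higher and 1 lower on day 1 and 0 higher and 3 lower on day 14. Nolc1, a chaperone of both snoRNA classes in the nucleolus and Cajal body, rose by 0.82 ± 0.08 on day 1, and coilin (Coil), the marker protein of Cajal bodies, was lower by -0.29 ± 0.09 on day 14. Of 5 genes for trimming snoRNA ends, 2 or 3 were higher on each day and none lower. The exonuclease Xrn2, which trims the 5′ end, rose by 0.53 to 0.91 ± 0.11 on all 6 days. These counts stand beside the shares of all rows given above.

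Marker genes of several cell types changed in signal over the same days. Of 10 muscle fibre markers 9 were lower on days 3 and 5, and their summed log2 signal was 16.55 to 17.23 on days 1 to 14 against 17.3 to 17.33 on day 0. Of 10 macrophage markers 9 or 10 were higher on each day, with sums of 14.37 to 15.33 against 12.54 to 13.02. Of 9 fibroblast and matrix markers 8 or 9 were higher from day 3 (15.8 to 16.43 against 14.35 to 14.49), and of 7 measured markers of dividing cells all 7 on days 3 to 10 (12.74 to 13.59 against 10.7 to 11.45). On day 1 none of these 7 was higher and 2 were lower. Of 8 neutrophil markers 7 were higher on day 1 (14.48 to 14.6 against 12.79 to 13.32) and 6 were lower on day 14 (11.39 to 11.72). Of 6 endothelial markers 4 were lower on day 1 (12.76 to 13.03 against 13.29 to 13.31). On day 5, 4 of these 6 were higher and 2 lower (13.81 to 13.84). Sums of B cell and erythroid markers were 10.38 to 11.23 on days 1 to 14 against 10.66 to 11.51. The part of these cells in the snoRNA differences was not tested. In bulk muscle, fewer cells of a type and less RNA per cell cannot be told apart.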

How the data were processed

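RNA of 14 pools of plantaris muscle was measured on 2 arrays a day (Affymetrix Mouse Gene 1.0 ST). The values deposited by the authors are log2 signals per row; Partek is named without a version in the submitters' processing notes, and the normalization method, genome build and any background correction are not given in the sources used here. The labels state both 100 ng and 250 ng of input RNA. The table used holds no detection call, and precision is limited by the number of arrays.

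Of 35557 rows, the platform annotation gave 21789 a single symbol, 1621 several and 12147 none. Linear models were fitted to the 21789 rows and all 14 arrays with limma 3.58.1 (R 4.3.3), with the day as group (7 residual degrees of freedom, prior 4.92). Tests were two-sided, with the Benjamini-Hochberg adjustment taken across the 21789 rows and calls made under 0.05. The median SE of a difference was 0.137 for snoRNA and scaRNA rows and 0.098 over all rows. Differences between snoRNAs of 1 host, or between snoRNA and host, were fitted as added rows. Hosts are genes of the RefSeq GRCm38.p6 table that contain the snoRNA gene; that table has no strand, so same-strand hosting could not be checked, and a host with several rows is given by its brightest. On simulated data for day 3 minus day 0 over 21789 rows, 4% of rows changed by 0.25, 44% by 0.5, 94% by 1 and 96% by 2 (50 each) were recovered. All other simulated rows were left unchanged, whereas 51.2% of all rows were called on day 3 in the data. The adjusted cut was therefore stricter in the simulation, and these shares do not carry over to the data. Right minus left differences correlated between days at r from -0.16 to 0.37 (5 of 21 pairs of days over 0.1), so the side was used as a block only in an alternative.

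Rows named are, per day, the 5 largest rises and falls called with both arrays beyond day 0, the 3 smallest F-test p-values and the 2 brightest and dimmest per class, guides with known roles, the scaRNAs and the largest changes between successive days. Other rows are named as companions in a host or as further cases chosen after their values were seen. The members and lists were chosen with earlier results of these data known. Alternatives were other scalings, filters, thresholds, array weights, the side as a block, all rows of the table, only the 4 arrays compared and each array left out. One host gene is not reported here.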

Additional observations from a re-analysis of the deposited data

Results flagged for a closer look

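Rows that name several genes stand outside the rule for single symbols, and 41 such rows name a snoRNA. Of these, 24 rows (7 with distinct values) name Snord116l1, Snord116l2 and Gm26504. Snord116 RNAs are box C/D RNAs of an imprinted cluster whose human copy is lost in Prader-Willi syndrome, and they have no known ribosomal RNA target. Over the 7 distinct rows the median difference from day 0 was -0.30 on day 1 and 0.51 on day 3, with no row called, and then 1.83, 2.55, 3.51 and 3.74 on days 5, 7, 10 and 14, with all 7 called higher in the limma fit to all rows of the table. They are given here because they were called at least 1 log2 above day 0, in rows that the comparisons do not use. The rule took rises only, and the p-values given come from the same values that chose the rows. The row with the middle mean gave 6.92 and 6.99 on day 0, 6.84 and 6.13 on day 1, 8.07 and 6.80 on day 3, 8.69 and 8.64 on day 5, 9.41 and 9.17 on day 7, 9.98 and 10.42 on day 10 and 10.19 and 10.71 on day 14. Its difference was 3.5 ± 0.37 (SE) on day 14 (adjusted p = 5.5e-05). The 7 rows name the same near-identical genes and can share transcript, so they are not independent of each other.

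A row named for Snord34 and Rpl13a was 1.15 ± 0.10 above day 0 on day 14 (adjusted p = 1.6e-05), with arrays at 9.5 and 9.72 against 8.52 and 8.40. A row named for Snord14d, Snord14c and Hspa8 was 1.06 ± 0.12 above day 0 on day 1 (adjusted p = 6.6e-05), with arrays at 11.42 and 11.28 against 10.45 and 10.14, and at -0.06 on day 14. Both are given for the same reason. SnoRNA and host share these rows, so the signal cannot be told apart between them. Of the 15 distinct rows with several symbols that do not name Snord116, 5 were called higher and 1 lower on day 10.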

How the results depend on the processing

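Every count of higher rows stayed within 1.5 times its value under each alternative. With 1 array left out, counts ran from 19 to 27, 21 to 27, 17 to 22, 20 to 27, 19 to 27 and 18 to 22 higher on days 1, 3, 5, 7, 10 and 14. Lower rows ran from 2 to 5, 0 to 5, 8 to 12, 5 to 8, 5 to 8 and 6 to 9, and rows that differ between days from 38 to 47. The gap between class medians ran from 0.31 to 0.41, 0.16 to 0.36, 0.22 to 0.61, 0.30 to 0.54, 0.27 to 0.60 and 0.48 to 0.67. Lower rows on day 1 numbered 4 with the median difference from day 0 set to 0, with the 25% of rows of lowest signal left out and with all 60 rows counted, and 0 with a difference of at least 0.5. On day 3 they numbered 0 with the median difference set to 0, at adjusted p under 0.01 and with a difference of at least 0.5, 1 with all rows of the table, 2 with array weights and 3 with the side as a replicate block. Equal array medians gave 17, 12, 10 and 15 lower rows on days 5, 7, 10 and 14, quantile normalization 8 and 12 on days 10 and 14, and a difference of at least 0.5 gave 7 on day 5. Changes called between successive days numbered 15, and 9 with all rows of the table, 4 at adjusted p under 0.01, 7 with a difference of at least 0.5 and 5 to 24 with 1 array left out. Differences between snoRNAs of 1 host numbered 12 at adjusted p under 0.01 and 13 to 22 with 1 array left out. Those between snoRNA and host numbered 40 both at adjusted p under 0.01 and with a difference of at least 0.5, and 53 to 75 with 1 array left out. The cause of these moves was not tested. Of 125 called differences of named rows, 99 kept their call without any 1 array and none changed direction under any alternative. Equal array medians ended 8 calls of named rows and added 13, the median difference set to 0 ended 9 and added 4, and quantile normalization ended 2 and added 7. The side block, in a design whose numbers do not pair samples, changed 3 of 192 named results and gave 42 rows that differ between days. All 60 rows counted was chosen after seeing the data.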

Other observations

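Other short and noncoding RNAs on the arrays did not share 1 course. Of 11 rows of short noncoding RNAs, 4 were called higher and 2 lower on day 3, and 5 higher and 1 lower on day 10, beside 51.2% and 60.5% of all rows called in either direction. The telomerase RNA Terc, itself an H/ACA RNA, was 0.84 ± 0.12 (SE) above day 0 on day 3 and at -0.06 on day 14. Rmrp, the RNA of an enzyme that cuts the ribosomal RNA precursor, was at -0.09 on day 1 and rose by 0.67 on day 3 and 0.74 ± 0.10 on day 10. Rnu3a (U3), a box C/D RNA of precursor cutting that the symbol rule leaves out, was 1.32 ± 0.42 above day 0 on day 3 (adjusted p = 0.02 in the limma fit) and was called on no other day. The moderated F test over all days did not call Rnu3a (adjusted p = 0.08). Rnu12 (U12), of the minor spliceosome, was lower by -1.04 ± 0.14 on day 5 and -0.85 on day 14, and the Ro-bound RNA Rny1 by -0.68 ± 0.11 on day 1.

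The noncoding genes Meg3 and Rian, of an imprinted cluster in which Rian carries box C/D snoRNAs, rose late. Meg3 was at -0.11 on day 1 and rose by 0.92 ± 0.10 on day 3, 2.35 on day 5, 2.74 on day 7, 3.64 on day 10 and 3.73 on day 14. Rian rose by 0.72 ± 0.16 on day 3 and 2.46 on day 14. Snhg5, another snoRNA host, rose by 0.97 ± 0.10 on day 1 and was at 0.33 on day 14.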
